A study of Homo sapiens with 9 samples.

Results

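The genes described here are 31 genes of mevalonate, sterol and fatty acid synthesis, chosen by gene symbol out of the 78986 genes in the deposited count table. They comprise 8 enzymes from acetyl-CoA to the isoprenoid diphosphates (ACAT2, HMGCS1, MVK, PMVK, MVD, IDI1, FDPS and GGPS1). Another 12 make squalene and carry it to cholesterol (FDFT1, SQLE, LSS, CYP51A1, TM7SF2, LBR, MSMO1, NSDHL, HSD17B7, EBP, SC5D and DHCR7). A further 5 act in sterol transport and in control of the pathway (STARD4, INSIG1, SCAP, SREBF1 and SREBF2), and 6 form the fatty acid branch (ACLY, ACACA, FASN, SCD, FADS1 and FADS2). The first 3 classes without SREBF1 are called the sterol branch, with 24 genes. SREBF1, which encodes a regulator best known for fatty acid genes, is given on its own.

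Sterol regulatory element-binding proteins (SREBPs) are transcription factors held in the membrane of the endoplasmic reticulum. When sterols are plentiful the escort protein SCAP is retained there by INSIG1. When sterols are scarce SCAP carries the SREBP to the Golgi, proteases release its active domain, and that domain activates genes for cholesterol uptake and synthesis (mainly SREBP-2, from SREBF2) or for fatty acid synthesis (mainly SREBP-1, from SREBF1), usually together with the factors NF-Y and Sp1. Higher expression of mevalonate pathway genes through SREBP has been described as a gain of function of some tumour-derived p53 mutants. Here mutant and overexpressed WT p53 were compared, so a gain of function and a loss of WT activity cannot be told apart.

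RNA was sequenced from 3 biological replicates each of HEK293T cells made to overexpress WT p53, p53 G245S or p53 R273H, both of them hotspot substitutions of the DNA-binding domain. HEK293T is an embryonic kidney line whose large T antigen binds p53. All groups were transduced with lentivirus, grown with puromycin, and kept the p53 of the parental line; untransduced cells were not analysed here, so each difference is between a mutant and added WT p53. Some labels name the line HEK 293. Each group was a puromycin-selected population, with no cloning step described. Whether the replicates of a group came from separate transductions is not given in the sources used here, and the p-values measure the spread between these libraries.

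The 8 libraries fitted held 7325514 to 9667306 counts, and the 31 genes took 0.280% to 0.336% of the counts over all 9 libraries. WT replicate 3 held 1486315 counts, less than 0.5 times the median of the others, and was left out of the fits reported here unless a value is said to include it, so that WT was n = 2 and each mutant n = 3. Its values are given where they bear on a gene. In that library the summed level of 5 epithelial markers was 267.1 CPM (counts scaled to 1000000 per library), against 73.4 to 84.6 CPM in the other 8. Of those 5 markers KRT18 was at 58.8 to 68.8 CPM and KRT8 at 9.65 to 12.1 CPM in these 8 libraries, while EPCAM, CDH1 and KRT19 were each at or below 3.42 CPM, although the labels call the cells epithelial. The sum of 5 mesenchymal markers, mostly VIM, was 498.3 to 647.8 CPM in the 8 libraries and 778.8 CPM in WT replicate 3. Blood, adipocyte and hepatocyte marker sums did not exceed 2.26 CPM in those 8 libraries, and CD3E and ADIPOQ were at 0 in all 9. The p53 target MDM2 served to check the labels: its level was 79.3 and 84.7 CPM in WT and 41.9 to 47.3 CPM in the 6 mutant libraries, with no overlap. Bulk RNA cannot separate fewer cells of a kind from less RNA per cell.

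Promoter sequences are shown first, because the genes of both branches are known for their shared control by SREBP and NF-Y. RefSeq promoter windows of 300 bases (250 before the start and 50 after it, GRCh38.p14) were matched by symbol for 27 of the 31 genes. ACAT2, FDFT1, SQLE and FASN had no entry. The 5 sequences below belong to the gene for SREBP-2 itself, to HMGCS1, the HMG-CoA synthase and the gene with the lowest p against WT in R273H, to MSMO1, and to TM7SF2 and LBR, which encode reductases for the same sterol step. They run 5′ to 3′ on the strand of the gene and stop before its first annotated base in the deposited table. Capitals mark matches to the sterol regulatory element (SRE, TCACNCCAC) or to the NF-Y box (CCAAT, or ATTGG where it lies on the other strand).

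SREBF2 (chr22:41832855-41833104, + strand): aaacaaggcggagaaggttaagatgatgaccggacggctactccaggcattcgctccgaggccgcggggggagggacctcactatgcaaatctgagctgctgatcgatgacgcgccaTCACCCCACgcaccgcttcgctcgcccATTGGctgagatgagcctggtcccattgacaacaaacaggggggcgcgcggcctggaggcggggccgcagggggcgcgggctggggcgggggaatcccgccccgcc
HMGCS1 (chr5:43313513-43313662, - strand): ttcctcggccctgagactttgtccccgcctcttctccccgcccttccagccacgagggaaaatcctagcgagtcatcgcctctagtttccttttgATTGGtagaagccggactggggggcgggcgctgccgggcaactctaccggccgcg
MSMO1 (chr4:165327419-165327666, + strand): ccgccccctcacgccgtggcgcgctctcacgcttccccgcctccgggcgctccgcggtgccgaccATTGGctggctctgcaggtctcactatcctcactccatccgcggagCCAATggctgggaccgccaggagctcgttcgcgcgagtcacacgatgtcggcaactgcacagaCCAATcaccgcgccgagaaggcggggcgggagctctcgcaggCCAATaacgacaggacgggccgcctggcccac
TM7SF2 (chr11:65111622-65111844, + strand): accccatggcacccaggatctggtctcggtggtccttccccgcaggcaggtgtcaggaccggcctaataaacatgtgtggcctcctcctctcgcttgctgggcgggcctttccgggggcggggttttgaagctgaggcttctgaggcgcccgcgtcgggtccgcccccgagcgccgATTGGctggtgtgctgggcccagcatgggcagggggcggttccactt
LBR (chr1:225428926-225429071, - strand): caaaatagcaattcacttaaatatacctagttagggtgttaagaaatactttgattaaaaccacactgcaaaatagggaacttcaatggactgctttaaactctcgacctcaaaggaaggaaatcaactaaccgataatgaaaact

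The SREBF2 promoter held both kinds of match, with the SRE starting at position -133 and the NF-Y box at -106 from the RefSeq start. It was the 1 gene of 27 with a match to that SRE, which was found for 1.39% of the 27305 gene symbols with a promoter in RefSeq, noncoding genes included. An NF-Y box was found in at least 1 window of 21 of the 27 genes, 17 of 21 in the sterol branch and 4 of 5 in the fatty acid branch, against 39.7% of all symbols. Counted by window, 25 of the 38 windows of these genes held one, against 34.6% of all 35116 windows. At least 2 NF-Y boxes in 1 window were seen for 14 genes, against 12.9% of symbols. MSMO1 had 4, at -185, -139, -76 and -34, whereas LBR had none in its window. In the HMGCS1 window that is printed in part, NF-Y boxes lay at -155 and -100, and the one at -100 lies past the printed stretch.

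**Figure D1:**
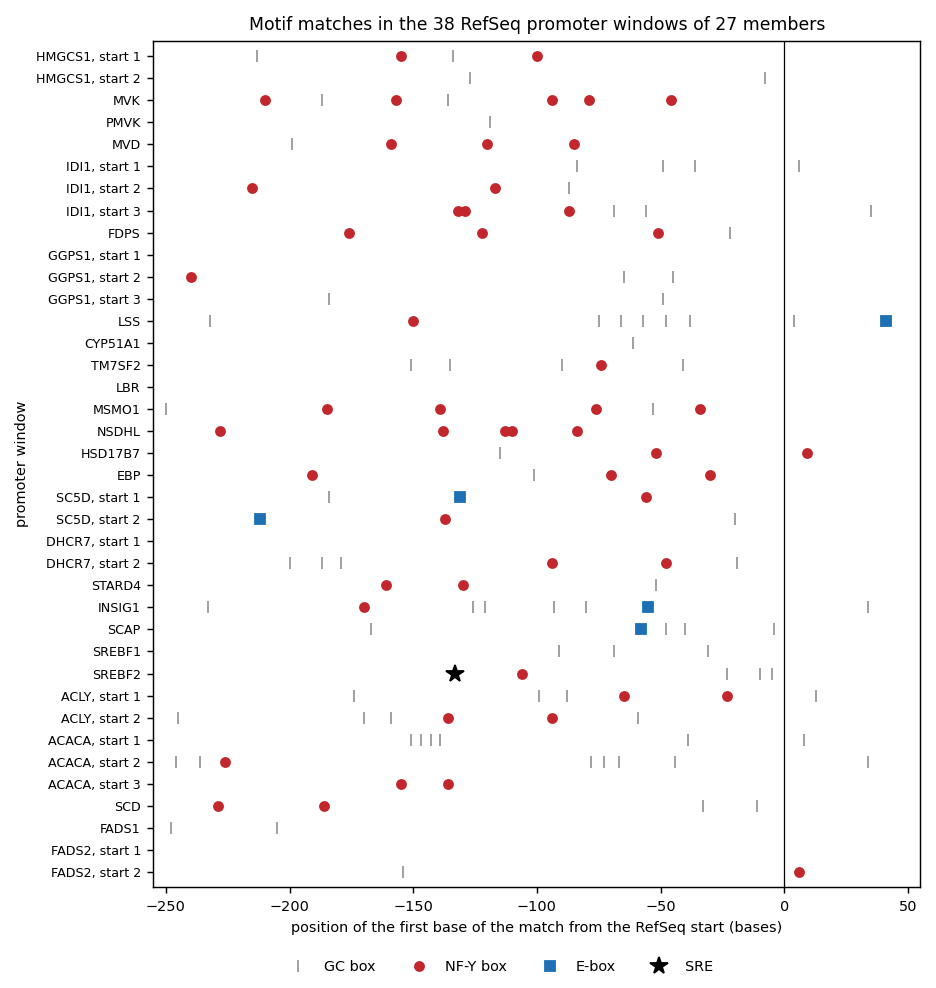
Positions of motif matches (horizontal axis, bases from the RefSeq start, first base of the match) in each of the 38 RefSeq promoter windows of 27 genes (vertical axis; a gene with several starts has a line for each). Red points are NF-Y boxes, grey ticks GC boxes, blue squares E-boxes and the black star the SRE of SREBF2 at -133. NF-Y boxes lie in 25 of the windows, mostly between -200 and -30.

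The 6 genes with no NF-Y box in any window were PMVK, CYP51A1, LBR, SCAP, SREBF1 and FADS1. A GC box (GGGCGG, the letters Sp1 binds) was found for 25 of 27 genes, against 48.3% of symbols, and an E-box (CACGTG) for 4, namely LSS, SC5D, INSIG1 and SCAP, against 8.77%. Both strands were searched, and no motif lies within another. A match describes letters only, and the absence of a match says nothing about binding elsewhere in the gene. Only the letters given were searched, so other forms of a motif within a window were not counted.

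None of the 31 genes passed the test in either mutant. All 31 had enough counts to be tested in every comparison. With edgeR's quasi-likelihood test and Benjamini-Hochberg adjustment, 0 of 31 reached an adjusted p under 0.05 in G245S against WT, where 0.126% of all genes tested did. The same held for R273H against WT (0 of 31, background 0.137%) and for R273H against G245S (0 of 31, background 0%). DESeq2 also called 0 of 31 in all 3 comparisons. The lowest adjusted p among the 31 genes was 0.605 in G245S, 0.482 in R273H and 0.994 between the mutants.

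**Figure D2:**
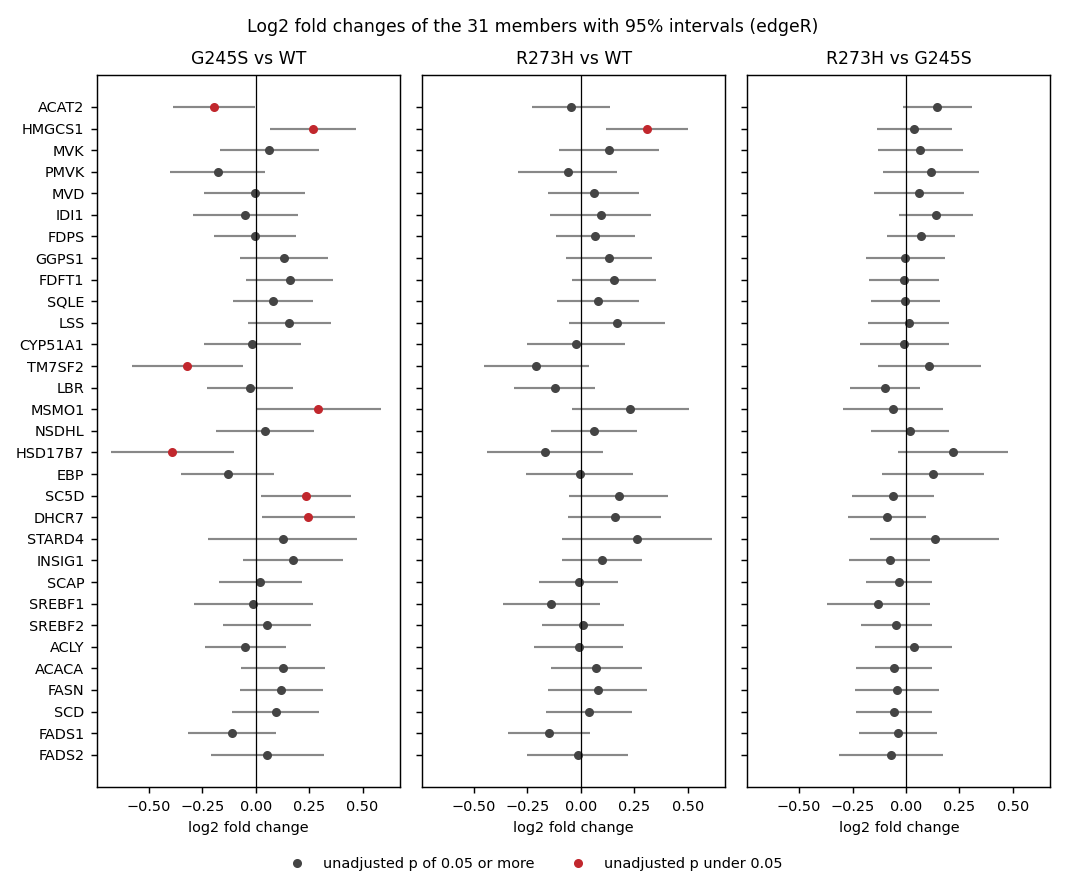
Log2 fold change of each of the 31 genes (points, edgeR) with its 95% interval (grey lines) for G245S against WT, R273H against WT and R273H against G245S. Red points have an unadjusted p under 0.05, 7 in the first panel, 1 in the second and 0 in the third, and no gene passed after adjustment.

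At an unadjusted p under 0.05, 7 of the 31 genes stood apart in G245S, or 22.6%, where 6.66% of all genes did. HMGCS1, MSMO1, SC5D and DHCR7 lay higher and ACAT2, TM7SF2 and HSD17B7 lower, and all 7 belong to the sterol branch. In R273H only HMGCS1 did (1 of 31, background 6.11%), and between the mutants 0 of 31 did (background 4.75%). DESeq2 gave 2, 1 and 0 genes at the same unadjusted threshold. Over all genes tested it gave 365 of 15893, 343 of 16022 and 274 of 15614, fewer than edgeR. The count of 7 rested in part on single libraries of both groups. Without G245S replicate 3 it was 3, where 876 of 15682 genes tested were under the threshold. With WT replicates 1 and 3 it was 2 (753 of 16143), and with WT replicates 2 and 3 it was 4 (1379 of 16196).

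The median log2 fold change of the sterol branch was 0.0478 in G245S and 0.0742 in R273H, beside 0.0034 and 0.0023 over all genes tested. In the fatty acid branch it was 0.0731 and 0.0147, and both signs rested on single libraries: the value was -0.0162 in G245S without G245S replicate 3, and in R273H -0.0239 without R273H replicate 1 and -0.0054 without WT replicate 2. Of the 31 genes, 18 had a positive fold change in G245S and 19 in R273H, or 58.1% and 61.3%, against 50.8% and 50.7% of all genes. Under some alternative fit the sign changed in 12 of the 31 genes in G245S and 14 in R273H. Both comparisons with WT share the same 2 WT libraries, so the directions of both mutants are not independent of each other.

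The intervals limit how large a change these data allow. In G245S the 95% interval lay within a 1.5-fold change in either direction for 29 of 31 genes, the exceptions being MSMO1, whose interval ended at 0.59 on the log2 scale, and HSD17B7, whose interval reached -0.68. In R273H it did so for 30 of 31, with STARD4 the exception at an upper end of 0.61. Between the mutants it did so for all 31. A limit of 1.25-fold was met by 16, 17 and 25 genes, so smaller differences were not resolved with 2 WT libraries.

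**Figure D3:**
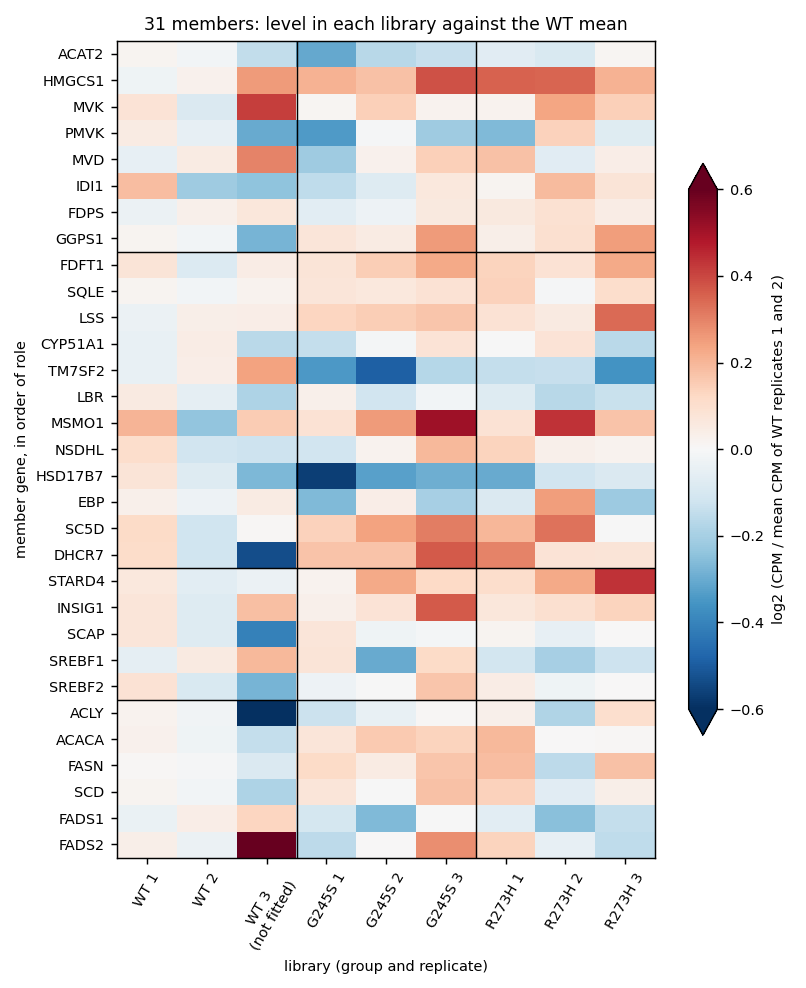
Level of each gene (rows, by role, black lines between roles) in each of the 9 libraries (columns), as the log2 ratio of its CPM to the mean CPM of WT replicates 1 and 2. HMGCS1 is above the WT mean in all 6 mutant libraries and TM7SF2 and HSD17B7 below it, and the WT replicate 3 column, which was not fitted, departs from the other WT columns for several genes.

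Among the enzymes of the mevalonate steps, HMGCS1 (ENSG00000112972, chr5:43287470-43313512 of GRCh38, - strand) makes HMG-CoA from acetyl-CoA and acetoacetyl-CoA in the cytosol. Its level was 60.2 and 62.4 CPM in the WT libraries, 70.9, 69.3 and 80.0 CPM in G245S and 78.4, 78.2 and 70.95 CPM in R273H. All 6 mutant libraries lay above both WT libraries. The log2 fold change was 0.27 (95% interval 0.06 to 0.47, SE 0.0942, adjusted p = 0.645, edgeR) in G245S and 0.31 (0.12 to 0.50, SE 0.0897, adjusted p = 0.482, edgeR) in R273H, which corresponds to 1.203-fold and 1.238-fold. Between the mutants it was 0.04, with an interval from -0.14 to 0.21. WT replicate 3 stood at 73.1 CPM, inside the range of the mutants, and with all 3 WT libraries fitted the values were 0.21 and 0.25.

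ACAT2, the cytosolic thiolase that joins acetyl-CoA units ahead of HMGCS1, had a negative fold change in G245S. Its level was 144.6 and 141.6 CPM in WT, 115.8, 127.7 and 129.9 CPM in G245S, and 136.3, 134.4 and 144.3 CPM in R273H. The G245S libraries lay below those of WT and of R273H, while R273H overlapped WT. The log2 fold change was -0.20 (-0.39 to -0.0043) in G245S with an unadjusted p of 0.0457 and an adjusted p of 0.741 by edgeR, -0.05 in R273H, and 0.15 (-0.02 to 0.31) between the mutants. WT replicate 3, at 129.3 CPM, fell inside the G245S range.

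The kinases MVK and PMVK, the decarboxylase MVD and the isomerase IDI1 follow in the pathway, and none reached an unadjusted p of 0.05 against WT. MVK ranged from 25.3 to 31.7 CPM over the 8 libraries, PMVK from 50.6 to 70.4 CPM and MVD from 35.1 to 46.0 CPM. IDI1, which interconverts the isopentenyl and dimethylallyl diphosphates, was at 96.3 and 73.1 CPM in WT, so that the spread within WT covered 5 of the 6 mutant libraries. FDPS, which makes farnesyl diphosphate, was at 204.4 to 228.1 CPM. GGPS1, which makes geranylgeranyl diphosphate for protein prenylation, was at 46.7 and 45.6 CPM in WT and 47.2 to 55.03 CPM in the mutants, above both WT libraries in all 6 by small margins.

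In the steps that make squalene and carry it to cholesterol, the first enzymes showed small positive fold changes. SQLE, the squalene epoxidase and a rate-limiting enzyme of the branch, stood at 226.4 and 221.0 CPM in WT, 234.9, 234.0 and 237.5 CPM in G245S and 245.9, 222.5 and 240.3 CPM in R273H. G245S lay above WT, and 1 R273H library lay between the WT libraries. Its log2 fold change was 0.08 in both mutants, with intervals from -0.11 to 0.27. FDFT1, the squalene synthase, had means of 172.5 ± 13.7, 191.6 ± 10.1 and 191.6 ± 9.56 CPM (SD, n = 2, 3 and 3) in WT, G245S and R273H. LSS, which closes the sterol rings, had means of 39.7 ± 1.33, 43.97 ± 0.575 and 44.5 ± 4.999 CPM. CYP51A1, the lanosterol demethylase, had means of 30.7 ± 1.30, 30.2 ± 2.34 and 30.2 ± 2.57 CPM, which differed by less than the spread within a group.

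TM7SF2 and LBR both encode a C14 sterol reductase, and LBR also anchors chromatin at the nuclear envelope. TM7SF2 (ENSG00000149809, chr11:65111845-65116384) was at 24.2 and 25.7 CPM in WT, 19.7, 17.8 and 22.2 CPM in G245S and 22.6, 22.7 and 19.5 CPM in R273H. Every mutant library lay below both WT libraries, and WT replicate 3, at 29.5 CPM, was higher still. The log2 fold change was -0.32 (-0.58 to -0.06, unadjusted p = 0.0190, adjusted p = 0.667, edgeR) in G245S and -0.21 (-0.45 to 0.04) in R273H. LBR was the more abundant of the pair, with a WT mean of 47.6 CPM per kilobase of the gene length in the deposited table, against 7.33 for TM7SF2. Its mean was 271.9 ± 14.1 CPM in WT, 265.6 ± 13.6 CPM in G245S and 249.4 ± 7.68 CPM in R273H (SD, n = 2, 3 and 3), and the R273H libraries lay below both WT libraries.

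MSMO1 and SC5D are iron-dependent sterol oxidases, the one acting in removal of the C4 methyl groups and the other introducing the C5 double bond. MSMO1 was at 65.6 and 48.3 CPM in WT, 60.4, 67.9 and 81.0 CPM in G245S and 60.5, 76.95 and 64.1 CPM in R273H. The WT libraries were far enough apart that the groups overlapped. Its log2 fold change of 0.29 in G245S had an interval from 0.0005 to 0.59, an unadjusted p of 0.0497 and an adjusted p of 0.751 (edgeR), and 0.23 (-0.04 to 0.51) was found in R273H. SC5D was at 64.2 and 54.6 CPM in WT, 65.3, 70.4 and 73.6 CPM in G245S and 68.2, 74.5 and 59.3 CPM in R273H. G245S lay above WT and R273H overlapped it, with log2 fold changes of 0.24 (0.02 to 0.45, unadjusted p = 0.0321, adjusted p = 0.709, edgeR) and 0.18 (-0.05 to 0.41).

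DHCR7, whose product makes cholesterol from 7-dehydrocholesterol, was at 105.4 and 89.7 CPM in WT, 109.8, 109.9 and 125.8 CPM in G245S and 119.8, 103.2 and 103.0 CPM in R273H. G245S lay above both WT libraries, and 2 of the 3 R273H libraries lay between them. The log2 fold change was 0.25 (0.03 to 0.46, unadjusted p = 0.0304, adjusted p = 0.704, edgeR) in G245S and 0.16 (-0.06 to 0.38) in R273H. WT replicate 3 was the lowest of all 9 libraries at 67.5 CPM, and the value in G245S was 0.35 with all 3 WT libraries fitted.

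HSD17B7 (ENSG00000132196, chr1:162790702-162812823), the 3-ketosteroid reductase of C4 demethylation, was at 18.7 and 16.8 CPM in WT, 12.03, 14.2 and 14.5 CPM in G245S and 14.4, 16.4 and 16.8 CPM in R273H. All 6 mutant libraries were below both WT libraries, by less than 0.1 CPM at the closest, and WT replicate 3 was at 14.8 CPM. It had the lowest unadjusted p of the 31 genes in G245S, with a log2 fold change of -0.39 (-0.68 to -0.10, unadjusted p = 0.0113, adjusted p = 0.605, edgeR), and -0.17 (-0.44 to 0.10) in R273H. A transcribed copy, HSD17B7P2, was counted on its noncoding entry at means of 5.79, 4.90 and 5.97 CPM in WT, G245S and R273H. Reads that map to both would have been shared as fractions, so the value of HSD17B7 is uncertain. Its count was fractional in 3 of the 9 libraries, and other genes carry the same limit. Fractional counts stood in 9 libraries for CYP51A1, 7 each for FASN and FADS1, and 5 each for HMGCS1, FDPS and TM7SF2. The dehydrogenase NSDHL, at 62.9 to 78.1 CPM, and the isomerase EBP, at 145.7 to 208.3 CPM, overlapped between all groups.

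**Figure D4:**
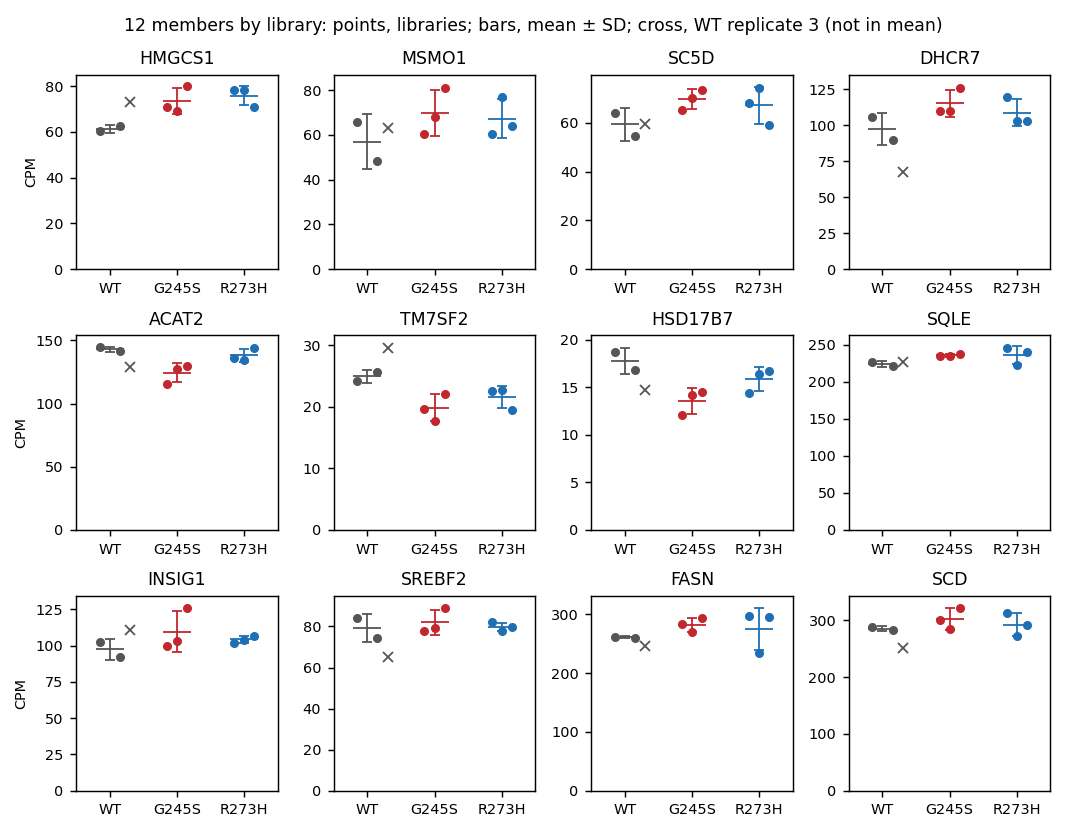
CPM (vertical axes, from 0) of 12 genes in WT, G245S and R273H. Points are libraries, bars the mean ± SD (n = 2, 3 and 3) and crosses WT replicate 3, which is in no mean. HMGCS1 points of both mutants lie above the WT points at 60.2 and 62.4 CPM, TM7SF2 points lie below the WT points, and SREBF2, INSIG1 and SCD points overlap between groups.

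No regulator reached an unadjusted p of 0.05 in any comparison. SREBF2 (ENSG00000198911, chr22:41833105-41907306), which encodes SREBP-2 and bears the SRE shown above, was at 84.2 and 74.5 CPM in WT, 77.8, 79.4 and 89.0 CPM in G245S and 81.9, 77.9 and 79.6 CPM in R273H. The groups overlapped, with log2 fold changes of 0.05 (-0.15 to 0.26) and 0.0090 (-0.18 to 0.20). SREBF1 was at 25.4 and 27.4 CPM in WT, 27.8, 21.4 and 28.6 CPM in G245S and 24.4, 22.96 and 24.2 CPM in R273H. R273H lay below both WT libraries, with a log2 fold change of -0.14 (-0.37 to 0.09), and G245S overlapped them at -0.01 (-0.29 to 0.27).

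INSIG1, which is both a target of SREBP and its inhibitor, and so a common readout of pathway activity, was at 102.5 and 92.3 CPM in WT, 99.6, 103.1 and 125.8 CPM in G245S and 102.0, 104.0 and 106.7 CPM in R273H. A single library, G245S replicate 3, stood above the rest, and both mutants overlapped WT. The log2 fold change was 0.17 (-0.06 to 0.41, adjusted p = 0.805, edgeR) in G245S and 0.10 (-0.09 to 0.29, adjusted p = 0.970, edgeR) in R273H. SCAP ranged from 98.2 to 108.7 CPM in the 8 libraries. STARD4, a cytosolic sterol carrier and the least abundant of the 31 genes, was at 8.27 and 7.58 CPM in WT, 8.05, 9.28 and 8.62 CPM in G245S and 8.53, 9.29 and 10.7 CPM in R273H. G245S overlapped WT, with a log2 fold change of 0.13 (-0.22 to 0.48), and R273H lay above both WT libraries, with 0.26 (-0.09 to 0.61).

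In the fatty acid branch no gene reached an unadjusted p of 0.05 in any comparison. FASN, the fatty acid synthase, was at 262.2 and 260.3 CPM in WT, 283.3, 270.3 and 293.2 CPM in G245S and 297.2, 234.3 and 295.2 CPM in R273H. G245S lay above WT, whereas R273H replicate 2 was the lowest and R273H replicate 1 the highest of the 8 libraries. Its log2 fold change was 0.12 (-0.08 to 0.31) in G245S and 0.08 (-0.15 to 0.31) in R273H. SCD, the stearoyl-CoA desaturase, was at 287.8 and 281.9 CPM in WT, 299.9, 284.5 and 322.1 CPM in G245S and 313.0, 271.6 and 291.9 CPM in R273H, and all groups overlapped, with log2 fold changes of 0.09 (-0.11 to 0.29) and 0.04 (-0.16 to 0.24).

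ACLY, which supplies cytosolic acetyl-CoA to both branches, ranged from 137.4 to 167.4 CPM, and ACACA, the carboxylase ahead of FASN, from 37.3 to 43.4 CPM. All G245S libraries of ACACA lay above WT. The desaturases FADS1 and FADS2, neighbours on chromosome 11 that overlap on opposite strands and were counted by strand, ranged from 72.9 to 90.1 and from 27.5 to 37.2 CPM. FADS1 was lower than both WT libraries in all 3 R273H libraries.

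The groups separated without overlap for a minority of the genes. In G245S, 8 of the 31 genes had every mutant library above both WT libraries (HMGCS1, GGPS1, SQLE, LSS, SC5D, DHCR7, ACACA and FASN), or 25.8%, against 11.3% of all genes tested, and 3 had every library below them (ACAT2, TM7SF2 and HSD17B7), against 10.8%. In R273H, 6 lay above (HMGCS1, FDPS, GGPS1, FDFT1, LSS and STARD4), against 10.2%, and 5 below (TM7SF2, LBR, HSD17B7, SREBF1 and FADS1), against 10.5%. Between the mutants, ACAT2 alone was higher in all R273H libraries, against 4.65% of genes, and 0 genes were lower, against 4.36%.

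Single libraries stood high or low for many of these genes at once. The median of the 24 sterol genes relative to the WT mean, on the log2(CPM + 0.5) scale, was 0.0561 in WT replicate 1 and -0.0561 in WT replicate 2. In G245S it was 0.0177, 0.0325 and 0.1005, and in R273H 0.0536, 0.0876 and 0.0432. The 2 WT libraries lay 0.0561 to either side of their mean, and 2 of the 6 mutant libraries, G245S replicate 3 and R273H replicate 2, lay farther from it. For the 6 fatty acid genes it was 0.0182 and -0.0182 in WT, -0.0158, -0.0003 and 0.1501 in G245S and 0.1342, -0.1129 and 0.0206 in R273H.

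**Figure D5:**
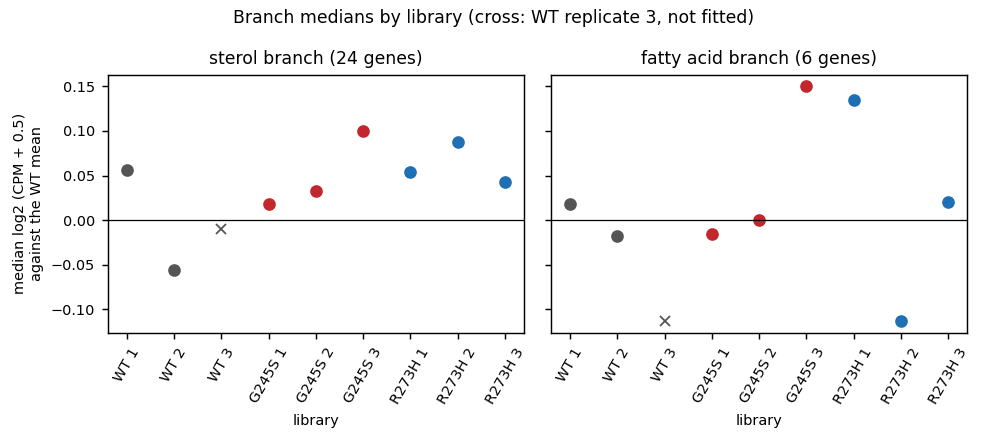
Median log2(CPM + 0.5) relative to the WT mean (vertical axis) of the sterol branch (24 genes, left) and the fatty acid branch (6 genes, right) in each library. Points are coloured by group and the cross is WT replicate 3. WT replicate 1 at 0.0561 exceeds 4 of the 6 mutant libraries in the sterol branch, and R273H replicate 2 is high for sterol genes at 0.0876 and low for fatty acid genes at -0.1129.

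G245S replicate 3 held the highest level of the 8 libraries for 10 of the 31 genes, or 32.3%, against 12.2% of the 15433 genes tested in all 3 comparisons. WT replicate 2 held the lowest for 13, or 41.9%, against 14.0%. Without G245S replicate 3 the sterol median in G245S was 0.0096, and without WT replicate 1 it was 0.1383. In R273H it was 0.0266 without WT replicate 2 and 0.1206 without WT replicate 1. What sets these libraries apart was not tested.

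Genes around the pathway gave the same picture, with 0 of 41 tested genes past an adjusted p of 0.05 (edgeR) in any of the 3 comparisons. Of 12 other genes of SREBP processing, sterol-dependent degradation and partner factors, only MBTPS2, the site-2 protease that releases the SREBP domain, had an unadjusted p under 0.05, in G245S (log2 fold change 0.21, 0.0041 to 0.42). NFYA, an NF-Y subunit, was at 31.9 to 36.2 CPM over the 8 libraries. Of 12 other lipogenic and sterol genes, LPIN1, a phosphatidate phosphatase and an SREBP target, was at 12.99 and 13.1 CPM in WT and 18.9, 15.2 and 21.3 CPM in G245S, all above WT (log2 fold change 0.51, 0.19 to 0.84, adjusted p = 0.526, edgeR). MID1IP1, an activator of acetyl-CoA carboxylase, was at -0.20 in R273H with an unadjusted p of 0.0371.

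On the side of sterol efflux and the liver X receptors, 6 of 7 listed genes could be tested. MYLIP, which encodes a ubiquitin ligase that removes lipoprotein receptors when sterols are high, was at 14.3 and 10.9 CPM in WT, 19.9, 15.6 and 20.2 CPM in G245S and 18.1, 14.6 and 15.5 CPM in R273H. All 6 mutant libraries lay above WT, with log2 fold changes of 0.57 (0.23 to 0.91, adjusted p = 0.451, edgeR) and 0.35 (0.03 to 0.67, adjusted p = 0.782, edgeR). Without a filter on low counts, its adjusted p in G245S was 0.0344, the 1 call of any listed gene under any setting.

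Of 11 genes that use isoprenoids, RABGGTB, a subunit of the Rab geranylgeranyl transferase, was at 94.9 and 75.8 CPM in WT, 71.2, 72.4 and 69.3 CPM in G245S and 67.2, 76.1 and 65.7 CPM in R273H. G245S lay below WT and 1 R273H library overlapped it, with log2 fold changes of -0.26 and -0.30 and unadjusted p of 0.0224 and 0.0142. COQ2, which prenylates the ubiquinone ring, was at -0.26 in G245S (unadjusted p = 0.0202). CHM, the Rab escort protein, was at 0.28 between the mutants (unadjusted p = 0.0295). None of these 3 passed after adjustment.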

How the data were processed

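Expected counts per gene, without normalization, were deposited by the authors for 9 libraries. They had filtered reads with fastp 0.24.0, aligned them with STAR 2.7.11 to GRCh38, removed duplicates with UMICollapse and counted exons and 3′ UTRs by strand with featureCounts of Subread 2.1.1, multi-mapping reads being shared as fractions. Another 9 columns of per-sample CPM were not used. Counts were rounded to whole numbers. WT replicate 3 was left out on depth alone, having fewer than 4096044 counts (0.5 times the median total of the remaining 8). Each mutant was compared with WT, and R273H with G245S, on the whole table (15893, 16022 and 15614 genes after filterByExpr), in R 4.3.3 with edgeR 4.0.16 (TMM, quasi-likelihood test), with Benjamini-Hochberg adjustment over all genes tested and a threshold of 0.05. Standard errors and 95% intervals are those of the log2 fold change. A count of 3, or 0.306 to 0.410 CPM in the fitted libraries, was taken as the floor, which covers counting error only.

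CPM in the text were scaled with TMM over all 9 libraries. DESeq2 1.42.0, other scalings, filters, WT libraries and a replicate block were alternatives. Python 3.11.15, numpy 2.4.6, pandas 2.3.3 and matplotlib 3.10.9 made tables and plots. The fit was tested on simulated data. Of genes given a log2 change of 0.5 in size, it called 43.9% in G245S against WT and 43.3% in R273H against WT. Between the mutants it called 57%, so many changes of that size would be missed. The 31 genes and the lists were chosen with earlier results of these data known. All 31 are accounted for; values in every library are given for genes with an unadjusted p under 0.05 and for HMGCS1, SQLE, INSIG1, FASN, SCD, SREBF1 and SREBF2. STARD4 was added after its values were seen. From each list up to 3 genes with the smallest unadjusted p under 0.05 are named, and NFYA was added. Replicates of a group differed by more than sampling noise (chi-square per degree of freedom above 4 in every pair).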

Additional observations from a re-analysis of the deposited data

Results flagged for a closer look

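WT replicate 3, the library left out for depth, held transcripts of epithelial and liver genes at over 3 times the highest level in the other 8 libraries. EPCAM was at 14.06 CPM (20 counts) against at most 3.417 CPM elsewhere, KRT8 at 54.83 against 12.1 CPM, and KRT19 at 33.74 against 1.367 CPM. FN1, a matrix protein gene, was at 111.8 against 22.41 CPM. ALB and APOA1, which hepatocytes express, were at 2.812 and 3.514 CPM (4 and 5 counts) against at most 0.2377 and 0.7709 CPM. Their source was not tested. In the same library 11 of the 31 genes of sterol and fatty acid synthesis lay below all other libraries (35.5%, against 31.8% of the 15433 genes tested in all 3 comparisons), among them ACLY at 94.2 CPM against 137.4 to 167.4 CPM, and 6 lay above (19.4%, against 28.1%), among them FADS2 at 48.5 against 27.5 to 37.2 CPM.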

How the results depend on the processing

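No gene of the 31 passed an adjusted p of 0.05 under any of 17 alternatives against WT or 15 between the mutants, and the lowest adjusted p among them was 0.290 (DHCR7 in G245S, WT replicates 2 and 3), 0.386 (HMGCS1 in R273H, protein-coding genes only) and 0.479 (ACAT2 between the mutants, replicate block). HMGCS1 and TM7SF2 were among the 19 genes in G245S and 17 in R273H that kept their sign under every alternative. The alternatives refit overlapping sets of the same libraries. A change of sign was seen in 12 of the 31 genes in G245S, 14 in R273H and 18 between the mutants. It was found in 39 of 527, 41 of 527 and 44 of 465 values. The fold change of these genes was at most 0.0641, 0.133 and 0.125 in size on the log2 scale.

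The count of genes at an unadjusted p under 0.05 was less stable, and the cause was not tested. Brackets give the count over all genes tested, which moved too. In G245S it was 7 above (1058 of 15893) and 2 with DESeq2 (365 of 15893). It was 2 with WT replicates 1 and 3 (753 of 16143) and 4 with WT replicates 2 and 3 (1379 of 16196). With all 3 WT libraries it was 4 (907 of 15606), and with each G245S library left out in turn 3 to 8 (736 to 1474). In R273H (1) it was 0 with WT replicates 1 and 3, 4 with WT replicates 2 and 3, 2 with no filter and 1 to 5 leaving out each library, the 5 without WT replicate 1. Between the mutants it was 0 above (741 of 15614) and 1 with library size only (721 of 15614). Leaving out each library it was 0 to 1 (473 to 1404). In the fits below that leave 1 WT library, it was assumed to vary like the other group.

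With WT replicates 2 and 3 the sterol median was 0.1315 in G245S (from 0.0478), and the fatty acid medians were 0.1682 in G245S (from 0.0731) and 0.1235 in R273H (from 0.0147). The fatty acid medians were 0.1492 and 0.0970 with WT replicates 1 and 3, and 0.1202 and 0.0886 with all 3 WT libraries. Leaving out each library, the sterol median ran from 0.0096 to 0.1383 in G245S, from 0.0266 to 0.1206 in R273H and from 0.0015 to 0.0602 between the mutants, and the fatty acid median from -0.0162 to 0.1028, from -0.0239 to 0.0790 and from -0.1028 to 0.0072.

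Whether replicate numbers pair the libraries was not settled. Correlations of same-numbered deviations from the group mean were 0.021 and -0.097 (G245S and WT) and -0.148 and 0.042 (R273H and WT). With 2 WT libraries the 2 WT deviations mirror each other, so these values cannot decide it. Between the mutants same numbers gave 0.133, 0.28 and -0.03, and different numbers -0.267 to 0.174. With the number as a replicate block, 2, 1 and 2 of the 31 genes had an unadjusted p under 0.05. Over all genes tested the counts at that threshold went from 1058, 979 and 741 to 853, 756 and 1312. The sterol medians were 0.0142, 0.0768 and 0.0151, and the fatty acid median in G245S was -0.0130. Calls over all genes went from 20, 22 and 0 to 76, 47 and 59. Calls over all genes were 144, 93 and 125 with no filter, and 3 and 4 against WT replicates 1 and 3.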
